A study of Mus musculus with 24 samples.

Results

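Integrins are the paired surface receptors by which a cell holds on to matrix, to complement fragments and to other cells, and 10 integrin chain genes known from macrophages were followed here in total RNA and in ribosome footprints. The chains were named by symbol, with no cut on measured values, but earlier results of these data were known when they were chosen. They were Itgb2 with its alpha partners Itgam, Itgal and Itgax, then Itgb1, Itga4, Itga6 and Itga9, and Itgav with Itgb5. All 10 had counts in both kinds of library, out of 23337 gene symbols counted, and all 10 passed the low-count filter with all cultures in, Itga9 through batches 1 and 2 alone.

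The cells were macrophages grown from the femur marrow of C57BL/6J mice aged 6 to 12 weeks, for 7 days on untreated dishes with M-CSF, a growth factor for macrophages, at 20 ng/mL, with feeding at 40 ng/mL every 3 days. By flow cytometry the submitters checked such cultures for F4/80 and for CD11b, the protein of Itgam. The mice were wild type (WT) or Apobec1 -/- (KO), which lack a cytidine deaminase that edits RNA. No other allele and no stimulus is named in the labels, which also leave out what part of Apobec1 is missing. Whether cultures stem from separate animals is not stated either, and p-values therefore measure the spread between these cultures, which may be technical. Each of 6 KO and 6 WT cultures gave a total RNA library and a library of ribosome-protected fragments (footprints, the stretches of mRNA covered by ribosomes).

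An integrin reaches the cell surface as a pair of 1 alpha and 1 beta chain, so the supply of one chain can limit its partner. Beta 2 pairs with alpha M (Itgam, the complement receptor chain CD11b), alpha L (Itgal, which binds ICAMs) and alpha X (Itgax, CD11c, common on dendritic cells and tissue macrophages). Beta 1 pairs with many alpha chains, among them alpha 4 (which binds VCAM-1 and fibronectin), alpha 6 (laminin), alpha 9 (tenascin and osteopontin) and alpha V. Alpha V also pairs with beta 5, a receptor for vitronectin that takes part in the uptake of dying cells.

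The cultures fell into 3 labelled batches: KO1 and WT1 to WT3 in batch 1, KO2 to KO4 and WT4 in batch 2, and KO5, KO6, WT5 and WT6 in batch 3. Depth in total RNA, as counts assigned to genes, was 5077478 to 12059361 per library. Footprint libraries held 29561 to 3714912, with 8 of 12 under 1000000 and WT6 the shallowest, and counting error is largest for the batch 3 footprints. No pair of libraries was identical (highest pairwise correlation 0.995 in RNA and 0.985 in footprints). The genotype labels were checked on Apobec1: its footprints were at 0 to 24.7 CPM (counts divided by library size, scaled here by the TMM method) in KO cultures and 57.6 to 105 in WT cultures, while its total RNA was higher in KO (log2 difference 1.34, edgeR adjusted p = 1.39e-04).

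Batch 3 stood apart from the other batches beyond the integrins. Its total RNA libraries held 1 to 2 counts over 4 Y-linked genes, against 973 to 3572 in batches 1 and 2, and 172 to 386 counts of Xist, against 2 to 11. The summed level of 11 macrophage markers in total RNA was 33822 to 41825 CPM in batch 1, 41002 to 60647 in batch 2 and 27497 to 37189 in batch 3. Of the 11, 7 were called lower in batch 3 than in batch 1, where 22.3% of all tested genes were. Markers of other cells also moved with batch in total RNA: 14 neutrophil markers summed to 64.4 to 79.0, 165 to 609 and 458 to 599 CPM in batches 1, 2 and 3 (Ngp, Elane and Retnlg at 0 in batch 1), 6 monocyte markers to 124 to 161, 412 to 553 and 151 to 201, and 11 dendritic cell markers to 596 to 1018, 1094 to 3397 and 151 to 267. In the same batch order, mast cell and basophil markers summed to 6.72 to 12.5, 2.13 to 4.22 and 40.7 to 70.1 CPM. Stromal and endothelial markers were at 13.2 to 15.7, 24.2 to 34.2 and 27.5 to 48.8, and osteoclast markers at 185 to 278, 108 to 143 and 123 to 163. Some of these sums rest on few genes. In total RNA, 1 of 6 mast cell and basophil and 1 of 8 stromal and endothelial markers passed the low-count filter. Of the 11 dendritic cell markers, 4 did. In batch 3 footprints Cpa3, Mcpt4, Mcpt8, Fcer1a and Ms4a2 were at 0, as were Flt3, Zbtb46, Xcr1, Clec9a, Cd209a and Siglech. A moved sum is therefore not read as a change in that cell type. The part of these cell types in the batch differences below was not tested, and in bulk RNA fewer cells of a type and less RNA per cell cannot be told apart. The labels give no sex, and the Y-linked and Xist counts split batch 3 from every culture of the other batches. A part of the animals' sex therefore cannot be told apart from batch 3.

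Beta 2 chain RNA varied little from culture to culture. Itgb2 was at 1262, 1203 and 1319 CPM in KO1, WT1 and WT2, with WT3 between KO1 and WT2, at 1052, 1035, 1042 and 1322 in KO2, KO3, KO4 and WT4, and at 921, 916, 802 and 889 in KO5, KO6, WT5 and WT6. The highest of 12 values was 1.65 times the lowest. Batch 3 lay below every culture of batches 1 and 2, and WT4 stood above the 3 KO cultures of its batch. Compared with batch 1, the log2 difference of Itgb2 RNA in batch 3 was -0.51 (SE 0.10, edgeR adjusted p = 0.00122).

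Itgb2 footprints followed another order. They were at 2677, 2620, 2736 and 2734 CPM in KO1, WT1, WT2 and WT3, at 1669, 1774, 1565 and 1899 in KO2, KO3, KO4 and WT4, and at 1997, 2247, 1886 and 1883 in KO5, KO6, WT5 and WT6. Batch 2, not batch 3, was the low batch by its median, with no overlap with batch 1 (log2 difference -0.66, SE 0.14, edgeR adjusted p = 0.00104). In batch 3 the difference from batch 1 was -0.33 (edgeR adjusted p = 0.0780), with no overlap between these batches. It was called lower with DESeq2 (-0.33, adjusted p = 0.0176) and limma voom (-0.33, adjusted p = 0.0471). The same held for edgeR with no low-count filter (-0.42, adjusted p = 0.0397) or without KO6 (-0.41, adjusted p = 0.0448).

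Itgam, the main complement receptor chain of macrophages, was low in batch 3 in both kinds of library. Its RNA was at 1174, 870, 1179 and 1140 CPM in KO1, WT1, WT2 and WT3, at 996, 1183 and 1960 in KO3, KO4 and WT4, with KO2 between KO4 and WT4, and at 461, 534, 450 and 468 in KO5, KO6, WT5 and WT6. The batch 3 values did not reach those of any other culture, and WT4 was the highest of 12. From batch 1 to batch 3 the log2 difference was -1.16 in RNA (SE 0.18, edgeR adjusted p = 1.75e-04) and -1.14 in footprints (SE 0.19, edgeR adjusted p = 1.37e-04).

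Itgax shares a stretch of chromosome 7 with Itgam and had, of the 10 chains, the largest log2 difference between batches 1 and 2. Its RNA was at 93.6, 132, 134 and 152 CPM in KO1, WT1, WT2 and WT3, at 70.9, 46.7, 72.3 and 9.32 in KO2, KO3, KO4 and WT4, and at 13.6, 14.9, 12.5 and 12.1 in KO5, KO6, WT5 and WT6. All of batch 2 lay under all of batch 1, and WT4, the culture with the most Itgam, had the least Itgax of the 12. The log2 difference of batch 2 from batch 1 was -1.76 in RNA (edgeR adjusted p = 0.0472) and -2.17 in footprints (edgeR adjusted p = 0.0294). Without WT4 the differences were -0.84 (edgeR adjusted p = 0.0238) and -0.99 (edgeR adjusted p = 0.00480). The RNA call was lost when WT1, WT2, WT3, KO3, KO5, KO6, WT5 or WT6 was left out (edgeR adjusted p = 0.0642 to 0.0874), and the footprint call without WT1, WT3 or WT5 (edgeR adjusted p = 0.0502 to 0.0528).

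From batch 1 to batch 3, Itgax fell, with a log2 difference of -3.46 in RNA (SE 0.51, edgeR adjusted p = 4.52e-04) and -2.93 in footprints (SE 0.72, edgeR adjusted p = 0.0214). The 4 footprint libraries of batch 3 held 23 Itgax counts together, and the footprint call was lost without KO5 (edgeR adjusted p = 0.0850) or WT5 (0.0913).

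Itgal, the alpha chain of the lymphocyte function-associated receptor, was the most scattered of the beta 2 partners. Its RNA was at 106, 20.6, 60.5 and 47.5 CPM in KO1, WT1, WT2 and WT3, at 74.8, 79.6, 39.4 and 161 in KO2, KO3, KO4 and WT4, and at 7.20, 13.8, 8.67 and 12.1 in KO5, KO6, WT5 and WT6. Batches 1 and 2 overlapped and batch 3 lay below both. From batch 1 to batch 3 the log2 difference in RNA was -2.48 (SE 0.60, edgeR adjusted p = 0.00907). The footprint libraries of batch 3 held 17 Itgal counts together, and the footprint difference of -1.98 did not pass the test (edgeR adjusted p = 0.306).

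**Figure D1:**
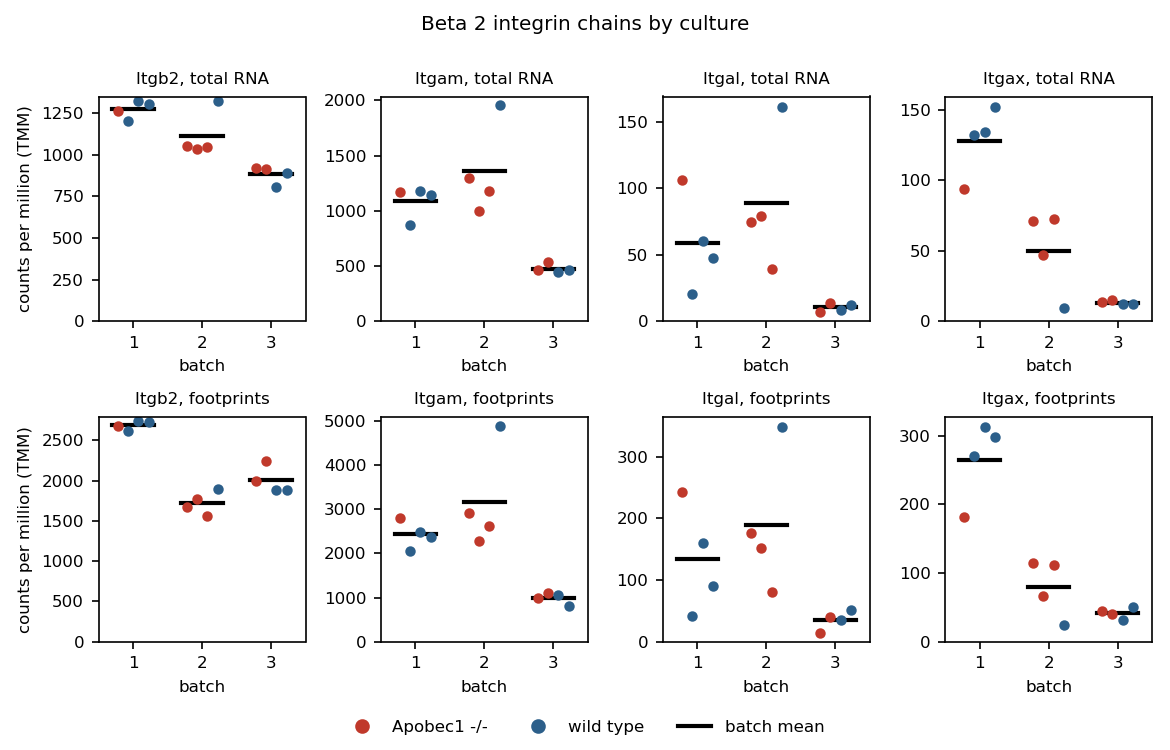
Levels (CPM, TMM scaled) of the beta 2 integrin chain Itgb2 and its alpha partners in each culture, by batch, in total RNA (top) and footprints (bottom); red points are Apobec1 -/-, blue points wild type and lines batch means. In RNA, batch 3 lies lowest for Itgb2, Itgam and Itgal, WT4 is the single high blue point of batch 2 for Itgam and Itgal at 1960 and 161 CPM, and it is the lowest point for Itgax at 9.32 CPM.

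The genes of the 3 alpha partners lie on mouse chromosome 7 (build GRCm38.p6, the NCBI name of the mm10 build in the submitters' processing notes): Itgal at 127296139 to 127335137, Itgam at 128062640 to 128118491 and Itgax at 128129526 to 128150657. The 250 bases upstream of the start site in the RefSeq promoter table are shown for Itgam and Itgax, whose RNA was lower in batch 3 than in batch 1, and for Itgb1 on chromosome 8, which had the narrowest RNA range over the 12 cultures of the 10 chains. All are on the plus strand, from RefSeq on GRCm38.p6, and capitals mark the purine box GAGGAA, a sequence bound by the myeloid factor PU.1, or its reverse complement TTCCTC. The windows are chr7:128062390-128062639, chr7:128129300-128129549 and chr8:128685404-128685653 in this order.
Itgam: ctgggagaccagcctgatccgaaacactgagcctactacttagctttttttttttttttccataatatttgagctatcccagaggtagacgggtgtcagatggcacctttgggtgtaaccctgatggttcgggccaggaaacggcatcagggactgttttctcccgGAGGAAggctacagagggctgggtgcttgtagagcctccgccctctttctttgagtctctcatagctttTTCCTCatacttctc
Itgax: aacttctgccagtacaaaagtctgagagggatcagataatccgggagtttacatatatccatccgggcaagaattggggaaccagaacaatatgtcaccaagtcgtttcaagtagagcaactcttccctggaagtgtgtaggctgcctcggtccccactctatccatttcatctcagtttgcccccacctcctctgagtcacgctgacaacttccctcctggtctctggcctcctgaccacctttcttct
Itgb1: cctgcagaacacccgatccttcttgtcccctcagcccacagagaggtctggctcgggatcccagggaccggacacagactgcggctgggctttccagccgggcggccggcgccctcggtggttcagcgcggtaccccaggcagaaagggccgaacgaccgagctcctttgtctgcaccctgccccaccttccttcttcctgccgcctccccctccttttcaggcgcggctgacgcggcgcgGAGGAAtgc
The window of Itgam held 2 such boxes, 1 on each strand, that of Itgb1 held 1, and that of Itgax held 0. Of 32817 mouse promoter windows of this length, 23.3% held at least 1, so a match in a single window is common. RefSeq windows were matched for 7 of the 10 chains, and those of Itga4 and Itgb5 held 0 boxes. The windows listed for Itga9 and Itgav start inside their gene spans, downstream of the gene's first base, and are not read here. The Itgax window runs to 128129549, a little past the first base of its gene span at 128129526.

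The balance of the beta 2 family was read from ratios of counts within a library. Counts were not divided by gene length, so a ratio is compared between cultures and its own size has no meaning as a chain ratio. The summed counts of Itgam, Itgax and Itgal over those of Itgb2 in total RNA were 1.09, 0.850, 1.04 and 1.03 in KO1, WT1, WT2 and WT3, 1.38, 1.08, 1.24 and 1.61 in KO2, KO3, KO4 and WT4, and 0.523, 0.614, 0.587 and 0.554 in KO5, KO6, WT5 and WT6. The alpha side was lower relative to Itgb2 in batch 3 than in any other culture.

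In footprints the same ratio was 1.21, 0.905, 1.08 and 1.01 in batch 1, 1.92, 1.41, 1.80 and 2.78 in batch 2, and 0.519, 0.522, 0.601 and 0.486 in batch 3, in the same culture order. The 3 batches did not overlap in footprints, and WT4 had the highest ratio in both kinds of library. On the log2 scale the batch mean was lower in batch 3 than in batch 1 by an amount of -0.81 in RNA and -0.98 in footprints, while batch 2 was higher than batch 1 by 0.40 and 0.88. Itgam gave most of the summed alpha counts, such as 8883 of 10394 in KO1 RNA and 16469 of 17720 in WT4 footprints. The summed ratio thus follows Itgam and not all 3 partners. Between batches 2 and 1, Itgam was not called (0.38 in RNA, edgeR adjusted p = 0.135, and 0.43 in footprints, edgeR adjusted p = 0.109). Itgax was lower in batch 2, and Itgb2 footprints had a log2 difference of -0.66. KO and WT ranges of the summed ratio overlapped, with medians of 1.09 and 0.940 in RNA. A low alpha side in batch 3 was not particular to beta 2. Summed counts of Itga4, Itga6, Itga9 and Itgav over Itgb1 were 1.47 to 1.63, 1.69 to 2.15 and 0.884 to 1.12 in RNA of batches 1, 2 and 3. Medians of that beta 1 ratio in footprints were 1.24, 1.20 and 0.867.

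**Figure D2:**
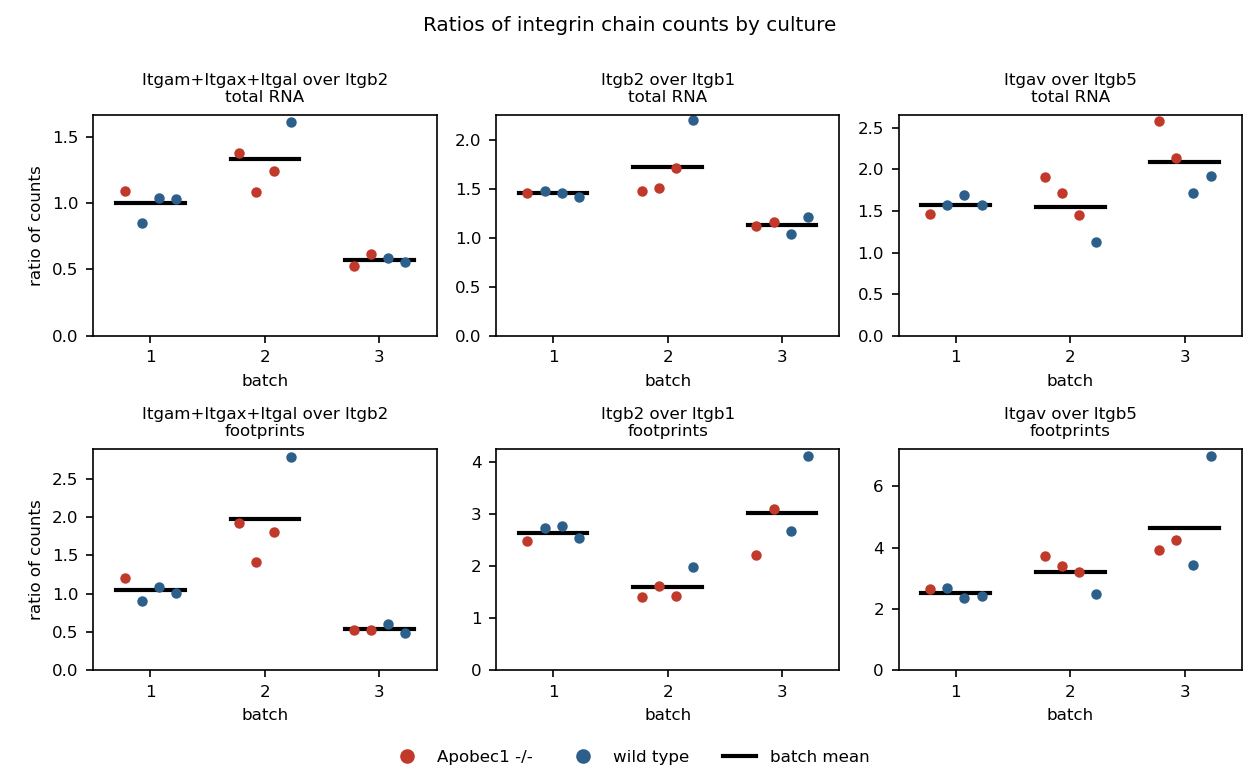
Ratios of integrin chain counts in each culture by batch, in total RNA (top) and footprints (bottom), without correction for gene length; red points are Apobec1 -/-, blue points wild type and lines batch means. The alpha to beta 2 ratio is lowest in batch 3 and highest in batch 2, where WT4 reaches 2.78 in footprints, and the Itgb2 to Itgb1 ratio is lowest in batch 2 in footprints.

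Itgb1, the shared partner of most matrix-binding alpha chains, had the narrowest RNA range of the 10 chains. It was at 861, 809, 904 and 915 CPM in KO1, WT1, WT2 and WT3, at 711, 684, 608 and 599 in KO2, KO3, KO4 and WT4, and at 819, 783, 767 and 732 in KO5, KO6, WT5 and WT6. Batch 2 was the low batch here and lay under all other cultures. From batch 1 to batch 2 Itgb1 fell, with a log2 difference of -0.46 (SE 0.09, edgeR adjusted p = 0.00469).

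Itgb1 was also the chain whose RNA was higher in batch 3 than in batch 2, by 0.26 (SE 0.09, edgeR adjusted p = 0.0240), a call that was lost without KO4, WT4 or KO5 (edgeR adjusted p = 0.0658 to 0.0849). Its RNA in batch 3 differed from batch 1 by -0.20 (edgeR adjusted p = 0.0799). Footprints of Itgb1 did not follow this order: they were at 962 to 1082 CPM in batch 1, 962 to 1185 in batch 2 and 458 to 903 in batch 3. The batch 3 footprints lay below the others (log2 difference from batch 1 -0.48, SE 0.15, edgeR adjusted p = 0.0195), and without the shallow libraries of KO6 and WT6 the value was -0.36 (edgeR adjusted p = 0.119); without WT3 it was -0.43 (edgeR adjusted p = 0.0572).

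Itga9 was near 0 in batch 3. Its RNA counts were 186, 249, 207 and 255 in KO1, WT1, WT2 and WT3, 224, 67, 175 and 114 in KO2, KO3, KO4 and WT4, and 1, 5, 4 and 4 in KO5, KO6, WT5 and WT6. As CPM these are 20.3 to 24.8, 11.6 to 35.2 and 0.141 to 0.670. The pooled batch 3 level, 14 counts, was 42.3-fold lower than that of batch 1 (95% exact Poisson interval of the batch 3 count gives 25.2 to 77.5) and 44.2-fold lower than that of batch 2, intervals that cover counting error only.

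Footprints of Itga9 numbered 60 in batch 1, 191 in batch 2 and 0 in batch 3. Against a floor of 3 counts over the 561912 counts of batch 3, Itga9 footprints were at least 2.83-fold lower than in batch 1 and at least 2.98-fold lower than in batch 2, so the depth limits how far the footprint fall can be read. By edgeR the log2 difference from batch 1 was -5.54 in RNA (SE 0.44, adjusted p = 1.57e-06), and in footprints the adjusted p was 0.00134. Itga9 passed the low-count filter through batches 1 and 2, where it is high, so its call against batch 3 followed from how it was admitted and is not counted as support. In footprints it was tested in 6 of the 12 fits that left out a culture, and fell under the filter without WT1, WT3, KO2, KO3, KO4 or WT4.

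Itga6, the laminin-binding alpha chain, fell in batch 3 in every culture. Its RNA was at 375, 352, 367 and 374 CPM in KO1, WT1, WT2 and WT3, at 385, 314, 375 and 365 in KO2, KO3, KO4 and WT4, and at 159, 150, 116 and 146 in KO5, KO6, WT5 and WT6. Batches 1 and 2 overlapped and batch 3 was separate. The log2 difference from batch 1 was -1.40 in RNA (SE 0.10, edgeR adjusted p = 5.65e-07) and -1.78 in footprints (SE 0.20, edgeR adjusted p = 5.82e-08), and these calls held in each of the 12 fits that left out a culture.

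Itga4 moved less. Its RNA was at 298 to 314 CPM in batch 1, 278 to 385 in batch 2 and 219 to 289 in batch 3. Batch 3 lay below batch 1 and overlapped batch 2 (log2 difference from batch 1 -0.31, edgeR adjusted p = 0.0385), and the call was lost when KO1, WT1, WT2, WT3, KO5, KO6 or WT5 was left out. Its footprints, at 194 to 196, 183 to 351 and 102 to 142 CPM, differed from batch 1 by -0.51 in batch 3 (edgeR adjusted p = 0.109), and the highest value of batch 2 was that of KO3.

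Itgav RNA was lower in batch 3 than in any culture of batch 1, while batches 1 and 2 overlapped. It was at 628, 632, 665 and 638 CPM in KO1, WT1, WT2 and WT3, at 659, 505, 581 and 349 in KO2, KO3, KO4 and WT4, and at 499, 450, 342 and 387 in KO5, KO6, WT5 and WT6. WT4 lay with batch 3 rather than with the rest of batch 2. The log2 difference of batch 2 from batch 1 was -0.50 (edgeR adjusted p = 0.0253), and -0.29 without WT4 (edgeR adjusted p = 0.205); the call was also lost without WT1, WT2 or WT3. The difference of batch 3 from batch 1 was -0.73 in RNA (edgeR adjusted p = 6.10e-04) and -0.70 in footprints (edgeR adjusted p = 0.00379).

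Itgb5, the vitronectin receptor partner of alpha V, was tightly grouped in RNA within batches 1 and 3 and more spread in batch 2. Its RNA was at 430, 402, 394 and 407 CPM in KO1, WT1, WT2 and WT3, at 344, 294, 399 and 309 in KO2, KO3, KO4 and WT4, and at 193, 211, 200 and 201 in KO5, KO6, WT5 and WT6. Batch 3 was separate from the others. The batch 2 value differed from batch 1 by -0.31 in RNA (edgeR adjusted p = 0.0432), a call lost when any of KO1, WT1, WT2, WT3, KO2, KO3, WT4, KO6 and WT6 was left out. The log2 difference of batch 3 from batch 1 was -1.04 in RNA (SE 0.10, edgeR adjusted p = 2.92e-06) and -1.18 in footprints (SE 0.21, edgeR adjusted p = 1.08e-04). The Itgav to Itgb5 count ratio was 1.46 to 1.69, 1.13 to 1.91 and 1.71 to 2.59 in RNA of batches 1, 2 and 3, with medians of 2.53, 3.31 and 4.09 in footprints, where WT6 rested on 1 Itgb5 count.

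**Figure D3:**
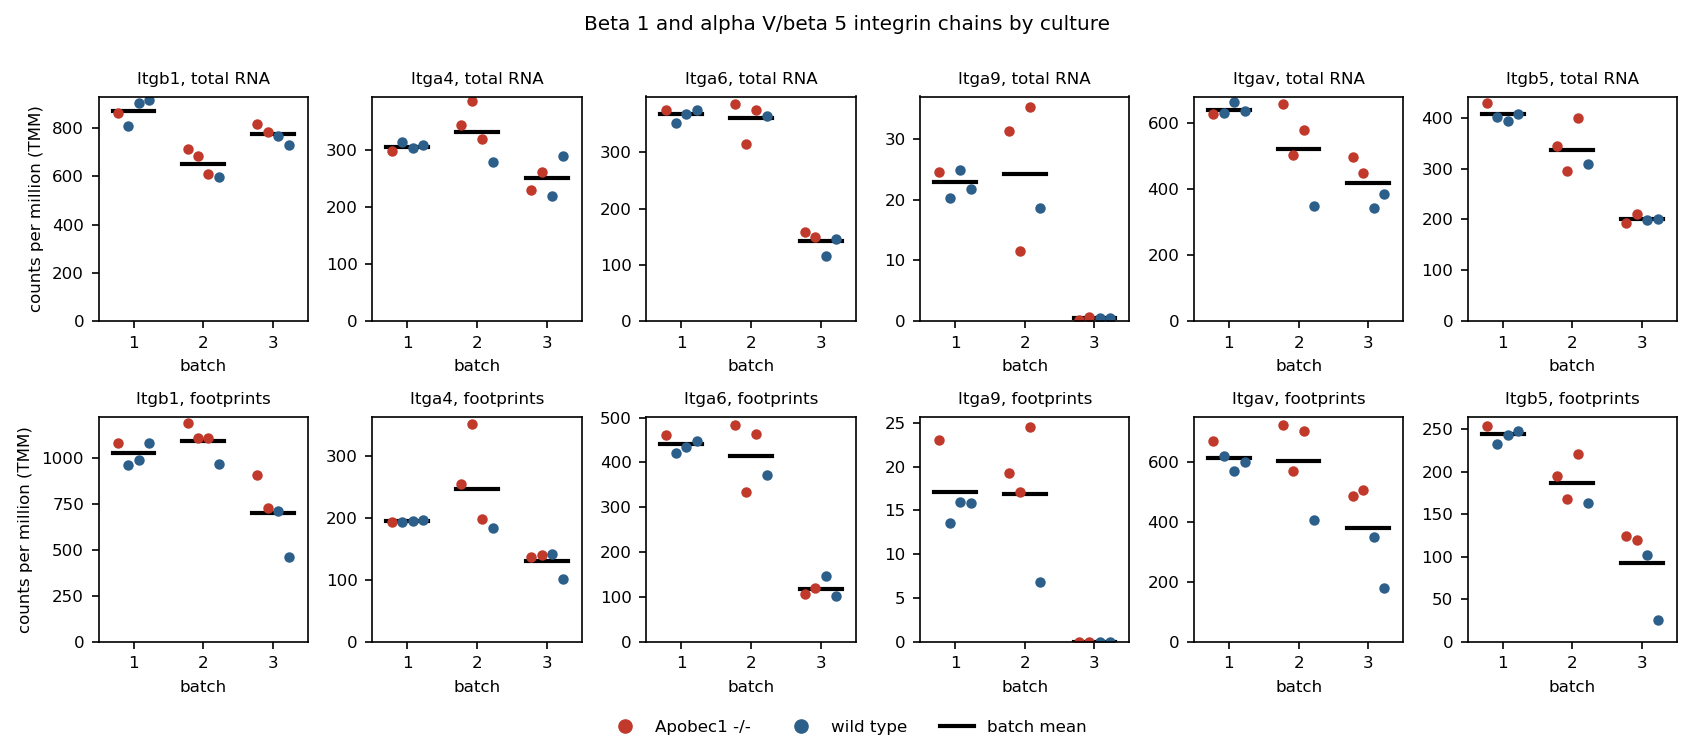
Levels (CPM, TMM scaled) of Itgb1, Itga4, Itga6, Itga9, Itgav and Itgb5 in each culture, by batch, in total RNA (top) and footprints (bottom); red points are Apobec1 -/-, blue points wild type and lines batch means. Itga6, Itga9 and Itgb5 are low in all 4 cultures of batch 3, with Itga9 footprints at 0 there, and Itgb1 RNA is lowest in batch 2.

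The counts that follow include Itga9, and leaving it out gives 8 of the other 9 chains lower in batch 3 than in batch 1 and 7 lower than in batch 2 in RNA, and 6 and 5 in footprints. Counted over the 10 chains, RNA in batch 3 was called lower than in batch 1 for 9 and higher for 0, where 22.3% of all tested genes were called lower. Against batch 2, 8 chains were called lower (24.5% of all tested genes) and 1, Itgb1, higher (24.7%). Between batches 2 and 1, 4 chains were called lower in RNA (Itgax, Itgb1, Itgav and Itgb5) where 10.8% of genes were. This last count rests on few cultures: it was 2 without WT4, KO3, KO6 or WT6, and 1 when WT1, WT2 or WT3 was left out. Of the 8 lower than in batch 2, Itgax was lost without KO5 or KO6, Itga4 without KO5, and Itgb2 without WT4 (log2 difference -0.22, edgeR adjusted p = 0.0834).

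In footprints, 7 of 10 chains were called lower in batch 3 than in batch 1 (11.2% of tested genes), 6 lower in batch 3 than in batch 2 (11.7%) and 3 lower in batch 2 than in batch 1 (Itgax, Itgb2 and Itgb5, where 7.37% of genes were called lower). Of the calls of batch 3 against batch 2, Itgb1 was lost without KO2, WT4 or KO6, Itga4 without KO3, KO5 or KO6, and Itga9 without KO5, while Itgax passed without WT4 (-1.50, edgeR adjusted p = 5.38e-04). Itgb2 footprints went the other way, with a log2 difference of batch 3 from batch 2 of 0.33 (edgeR adjusted p = 0.0742). They were called higher in batch 3 without WT4 (0.45, edgeR adjusted p = 0.0181) or KO3 (0.37, edgeR adjusted p = 0.0436), and with DESeq2 (0.32, adjusted p = 0.0138) and limma voom (0.37, adjusted p = 0.0148). The Itgb5 call of batch 2 against batch 1 was lost without WT3 or WT4. Batches 2 and 3 share batch 1 as their reference, and the 3 batch contrasts are not independent of each other. With WT cultures alone, 1 in batch 2, Itgam rose by 0.89 from batch 1 to batch 2 in RNA (edgeR adjusted p = 0.0122), a comparison that rests on WT4, and the Itgax RNA difference of batch 3 from batch 2 turned from -1.71 to 0.38 (edgeR adjusted p = 0.185).

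**Figure D4:**
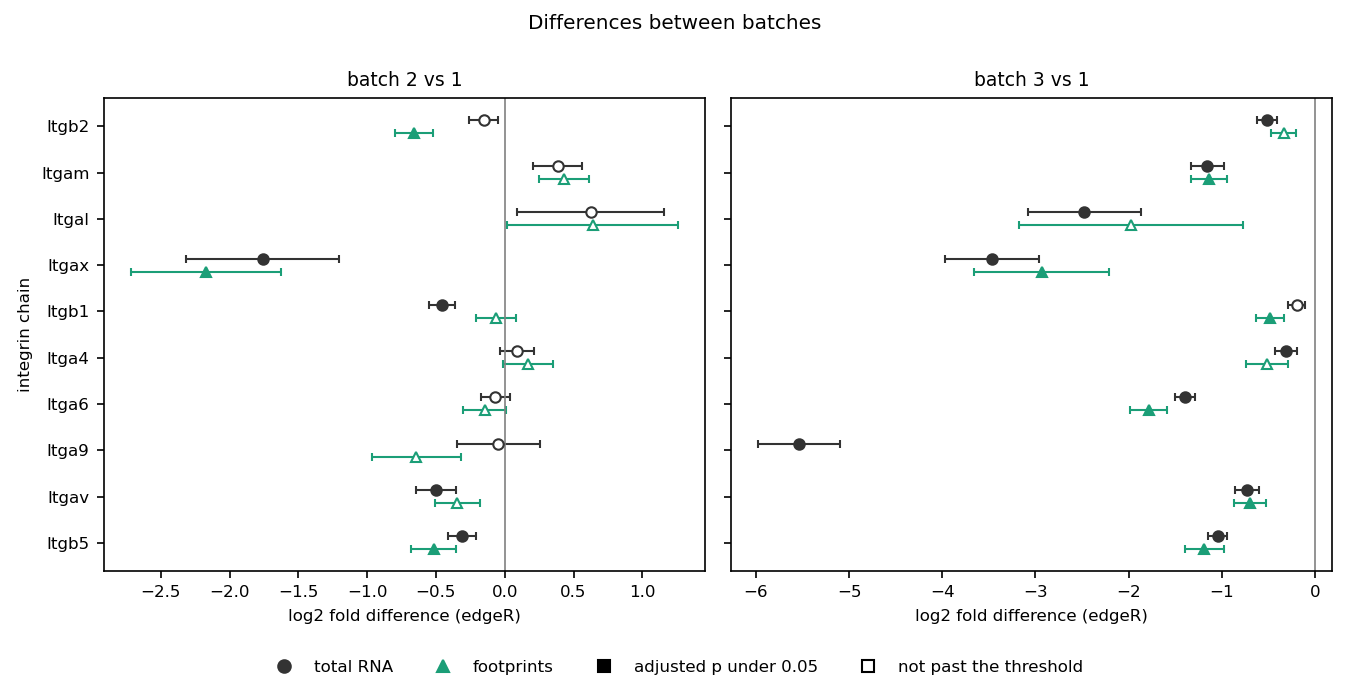
Log2 fold differences of batch 2 (left) and batch 3 (right) from batch 1 for each integrin chain, with standard errors from edgeR; circles are total RNA, triangles are footprints and filled symbols pass an adjusted p of 0.05. Itga9 footprints of batch 3, at 0 counts, are not drawn; Itga9 RNA at -5.54 and Itgax RNA at -3.46 lie farthest from 0 in batch 3, and in batch 2 Itgb1 is called in RNA alone and Itgb2 in footprints alone.

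No integrin chain was called different between genotypes. Of 10 chains, 0 passed in total RNA (0.0183% of tested genes did), 0 in footprints (0.0832%) and 0 in footprints relative to RNA (0.00930%) by edgeR. At an unadjusted p under 0.05 there was 1 chain in RNA (4.68% of tested genes), 2 in footprints (8.52%) and 1 in footprints relative to RNA (2.98%). KO and WT ranges of CPM overlapped for all 10 chains in both kinds of library, where ranges did not overlap for 0.110% of tested genes in RNA and 0.166% in footprints.

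Itgav came nearest in total RNA, with a KO over WT log2 difference of 0.35 (SE 0.12, edgeR adjusted p = 0.859). KO values ran from 450 to 659 CPM around a median of 543, and WT values from 342 to 665 around 509. In footprints the Itgav difference was 0.52 (SE 0.14, edgeR adjusted p = 0.198). Within batches 1, 2 and 3, KO minus WT of Itgav footprints was 0.17, 0.70 and 0.99 on the log2 CPM scale, and in RNA it was -0.04, 0.73 and 0.38. Batch 1 has KO1 as its single KO culture and batch 2 has WT4 as its single WT culture. The batch 3 footprint value leans on WT6, which gave 7 Itgav counts (7.49 log2 CPM, against 8.46 in WT5).

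Itga9 footprints had the other low p of the family, with a log2 difference of 1.22 (SE 0.32, edgeR adjusted p = 0.159). KO values ran from 0 to 24.5 CPM and WT values from 0 to 16.0, and batch 3 gave no count in either genotype. Within batch 1 KO minus WT was 0.56, and within batch 2 it was 1.37 against the single WT4 library.

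The difference between genotypes turned on 2 cultures. Without KO1, the single KO culture of batch 1, footprints of Itgax (log2 difference 1.79, edgeR adjusted p = 2.06e-05), Itga9 (1.58, edgeR adjusted p = 0.0103) and Itgav (0.69, edgeR adjusted p = 0.00922) passed the test, along with 269 genes in all against 6. Without WT4, the single WT culture of batch 2, the same Itgax value was -0.55 (edgeR adjusted p = 0.921) and the Itgav value 0.36 (edgeR adjusted p = 0.950), while Itga9 footprints fell under the filter. In the 4 cultures whose footprint libraries held at least 1000000 counts, 5 chains passed in RNA and 4 in footprints, but there the KO effect was KO2 and KO4 against WT4 alone.

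Itgax differed most between genotypes in batch 2. Its RNA in KO2, KO3 and KO4 was at 70.9, 46.7 and 72.3 CPM against 9.32 in WT4, a log2 CPM difference of 2.70, while in batches 1 and 3 KO minus WT was -0.57 and 0.20. WT4 also had the highest summed neutrophil markers of the 12 total RNA libraries, at 609 CPM, and the highest summed macrophage markers, at 60647. Of 8 neutrophil markers tested in footprints, 2 were called lower in KO, where 0.0832% of all tested genes were called in either direction. The part of these in the integrin values was not tested.

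The authors' deposited table of their own comparison over all genes lists all 10 chains with an adjusted p of 1, and Itgb1 alone has a deposited p under 0.05 (0.0450). The authors' deposited table of the top 25 percent of genes lists 8 of the chains, with adjusted p-values of 0.650 to 0.982. The direction of the fold change is not given in either deposited table, so none is printed here.

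Footprints relative to RNA varied between chains, with 4 higher in footprints (Itgam 1.25, Itgax 1.18, Itgb2 1.06 and Itgb1 0.39 on the log2 scale; 28.4% of genes were called higher) and 2 lower (Itga4 -0.56 and Itgb5 -0.74; 38.5% of genes). The region in which total RNA reads were counted is not stated and footprints were counted in coding sequence, so the size of this difference is not compared between genes. With the 2 libraries of a culture paired as a block, 7 chains were higher (29.5% of genes) and 2 lower (39.2%), with Itgal (1.38), Itga6 (0.19) and Itgav (0.13) added. Without KO6 and WT6 the Itgax difference was 1.19 and did not pass (edgeR adjusted p = 0.104), nor did it without KO5, KO6 or WT5.

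For a single gene the footprint to RNA ratio can be compared between cultures, and in batch 2 it moved in opposite ways for the 2 main beta chains. The ratio of CPM for Itgb2 was 2.12, 2.18, 2.07 and 2.10 in KO1, WT1, WT2 and WT3, 1.59, 1.71, 1.50 and 1.44 in KO2, KO3, KO4 and WT4, and 2.17, 2.45, 2.35 and 2.12 in KO5, KO6, WT5 and WT6. For Itgb1 it was 1.26, 1.19, 1.09 and 1.18 in batch 1, 1.67, 1.62, 1.82 and 1.61 in batch 2 and 1.10, 0.927, 0.924 and 0.626 in batch 3, in the same order. All 4 cultures of batch 2 were lowest for Itgb2 and highest for Itgb1, with no overlap. How many of all genes separate batch 2 in this way was not counted, so it is not shown to be particular to these chains. The total RNA libraries also differed by batch in the share of alignments assigned to no feature. That share was 8.46 to 10.7% in batch 1, 14.1 to 19.2% in batch 2 and 4.32 to 5.53% in batch 3, and its part in the ratios was not tested.

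In the test that took the 24 libraries as independent, 0 of 10 chains were called in footprints relative to RNA between batches 2 and 1, where 10.0% of genes were (Itgb2 -0.47, edgeR adjusted p = 0.0771, and Itgb1 0.43, edgeR adjusted p = 0.123). Without WT5, Itgb2 passed (edgeR adjusted p = 0.0449). With the 2 libraries of each culture paired as a block, 2 of 10 passed, which is near the 21.5% of all genes that did. Of these 2, Itgb2 fell, with a log2 difference of -0.47 (edgeR adjusted p = 0.00423), and Itgb1 rose, with 0.44 (edgeR adjusted p = 0.00764). Count ratios restate this from the same counts and are no further support. Itgb2 over Itgb1 was 1.42 to 1.49, 1.48 to 2.21 and 1.05 to 1.21 in RNA of batches 1, 2 and 3, and 2.47 to 2.77, 1.41 to 1.97 and 2.21 to 4.11 in footprints. Batch 2 was thus the lowest batch by its median in footprints and the highest in RNA.

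**Figure D5:**
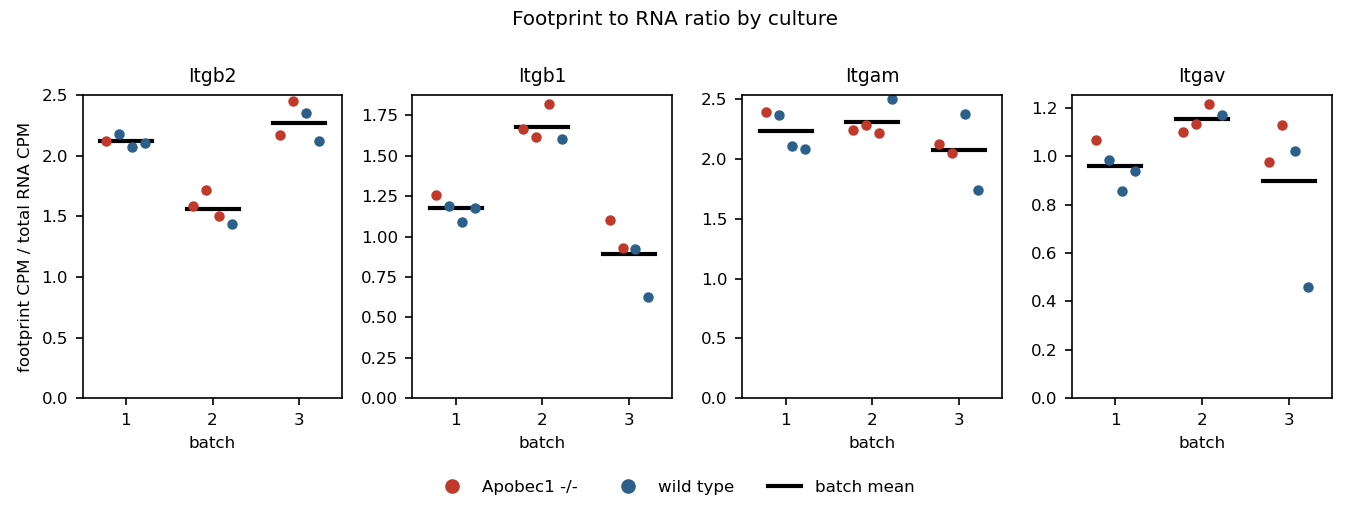
Footprint CPM divided by total RNA CPM in each culture, by batch, for Itgb2, Itgb1, Itgam and Itgav; red points are Apobec1 -/-, blue points wild type and lines batch means. In batch 2, Itgb2 falls to 1.44 to 1.71 and Itgb1 stands at 1.61 to 1.82, while Itgam stays between 1.74 and 2.50 over all 12 cultures.

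The footprint to RNA ratio of Itgam, with a range of 1.74 to 2.50 over the 12 cultures, was at 2.08 to 2.39, 2.22 to 2.50 and 1.74 to 2.37 in batches 1, 2 and 3, with overlap between batches. That of Itgav was 0.855 to 1.07, 1.10 to 1.22 and 0.461 to 1.13, with WT6 the lowest. Over all 12 cultures the ratio ran from 1.42 to 4.20 for Itgax, from 1.84 to 4.20 for Itgal and from 0 to 1.47 for Itga9, chains with few footprint counts in batch 3. For Itga6 the ratio was 1.18 to 1.23 in batch 1, 1.02 to 1.25 in batch 2 and 0.668 to 1.26 in batch 3, where WT6 gave 4 Itga6 footprint counts.

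Of 16 other integrin chains, 5 passed the filter in total RNA and 3 in footprints. Itgb3, the beta chain of the vitronectin receptor of osteoclasts, fell by 2.24 from batch 1 to batch 2 in RNA (edgeR adjusted p = 1.85e-05) and was higher in batch 3 than in batch 2 by 2.20 (edgeR adjusted p = 1.14e-06). Itga1, a collagen receptor chain, was higher than in batch 1 by 2.35 in batch 2 (edgeR adjusted p = 0.00404) and by 3.63 in batch 3 (edgeR adjusted p = 1.74e-05). Its RNA held only 5 to 67 counts per library (0.513 to 9.46 CPM). With so few counts it may have passed the filter through the batches where it is high, so these calls are not counted as support. Itgb7, the partner of alpha 4 and alpha E, rose by 1.58 from batch 1 to batch 3 (edgeR adjusted p = 0.00408). No other chain was called between genotypes, and its smallest edgeR adjusted p was 0.859 in RNA.

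Of 44 tested proteins that activate integrins or link them to actin and signalling, 0 differed between genotypes in RNA, 10 were higher and 2 lower in batch 2 than in batch 1 (12.7% and 10.8% of all tested genes), and 6 were higher and 18 lower in batch 3 than in batch 1 (23.0% and 22.3% of all tested genes), with a median log2 difference of -0.25 against 0.01 over all tested genes. Lyn (-0.78, edgeR adjusted p = 2.05e-05), a Src family kinase, Fyb (-1.24, edgeR adjusted p = 3.60e-05), an adaptor, and Rap1b (-0.67, edgeR adjusted p = 2.09e-04), a small GTPase that drives integrin activation, were among those lower in batch 3. Parvg, a parvin of blood cells, was higher (0.95, edgeR adjusted p = 1.41e-04).

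In footprints relative to RNA, 5 of the 44 were higher and 4 lower in batch 2 than in batch 1, where 10.0% of all genes were called in either direction, and the list's median log2 difference was -0.04. Among the called, the small GTPase Rap1b was higher there than in batch 1 by 1.58 (edgeR adjusted p = 2.85e-05) and Rap1a by 1.47 (edgeR adjusted p = 1.62e-05), while Rac1, which acts on actin, was lower (-1.25, edgeR adjusted p = 4.28e-05). Cd47, a partner of beta 3 integrins, was higher (0.94, edgeR adjusted p = 0.00113).

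Of 18 tested integrin ligands, 0 differed between genotypes in RNA, and 4 were higher and 8 lower in batch 3 than in batch 1, beside 23.0% and 22.3% of all tested genes. C3, whose fragment iC3b is the ligand of alpha M beta 2, fell by 3.47 (edgeR adjusted p = 2.29e-07), and Fn1, fibronectin, fell by 2.80 (edgeR adjusted p = 3.37e-04). Lgals3, a galactoside-binding lectin, rose by 0.68 (edgeR adjusted p = 2.71e-04). Of 16 tetraspanins and other membrane partners, 0 differed between genotypes, and 8 were higher and 5 lower in batch 3 than in batch 1, against the same shares of all genes.

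The genes whose log2 CPM tracked each chain most closely over the 12 total RNA libraries, which share 3 batches, were Hexim1 (Pearson r 0.988) and Rxra (0.985) for Itgam, Nes (0.990) and Ets1 (0.980) for Itgax, Aoah (0.981) and Siglece (0.979) for Itgal, Bbx (0.975) and Cat (0.971) for Itgb2, Psmd1 (0.975) and Avl9 (0.960) for Itgb1, Asxl1 (0.939) and Nlrp3 (0.938) for Itga4, Aftph (0.993) and Dst (0.990) for Itga6, Tlr8 (0.995) and Abca9 (0.994) for Itga9, Smchd1 (0.984) and Skiv2l2 (0.972) for Itgav and Trf (0.991) and Ehd4 (0.990) for Itgb5. All are descriptions over libraries that differ by batch. Among the chains themselves, Itgam tracked Itgal at 0.945 and Itga6 at 0.925 but Itgb1 at -0.274, and Itgax tracked Itgav at 0.921.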

How the data were processed

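Ribosome footprints and total RNA of 12 macrophage cultures (24 libraries) were compared by genotype and batch. The authors deposited raw counts per gene symbol, restricted to coding sequence for footprints by the names of the deposited tables; genes missing from a file were taken as 0, and the 5 summary lines of each file were left out. Per the submitters' processing notes, which give no roles, the tools were HTSeq, TopHat2 2.1.0, DESeq2, DESeq, Bowtie 1.1.2, Trim Galore and Cufflinks 2.2.1, with the build mm10. How strand and multiple alignments were treated is not given in the sources used here, and 27.8 to 51.2% of RNA and 45.6 to 80.1% of footprint alignments stand in the summary line for reads that are not unique. The authors also deposited tables whose columns, per the file headers, are a mean count (a normalised signal), a log2 fold change, a test score and a p-value.

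The main test was the robust quasi-likelihood test of edgeR 4.0.16 in R 4.3.3, on a model of genotype plus batch. Genes passed filterByExpr at a minimum count of 10, libraries were scaled by TMM, and p-values were adjusted by Benjamini-Hochberg over all tested genes, with calls at 0.05; footprints relative to RNA were the interaction with molecule over the 24 libraries. CPM used TMM factors and log2 CPM a prior count of 2. Alternatives were RLE scaling, no filter, DESeq2 1.42.0, limma 3.58.1 voom, blocks, subsets and leaving out each culture. Leaving out KO6 with WT6, and Itgam alone over Itgb2, were chosen after seeing the data. The edgeR script was tested on simulated data.

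Ratios of chains use counts without gene length, because no coding or transcript length was in the reference used here; the planned ratio per length was replaced. Members and lists were chosen with earlier results of these data known. Named genes are the 10 chains, up to 6 called genes with the smallest p per list, and the 2 genes most correlated with each chain. Markers of platelets, lymphocytes, mast cells, erythroid, stromal and osteoclast cells were summed too: in total RNA of KO and WT cultures they ranged over 21.7 to 37.1 and 17.3 to 36.5, 1.41 to 6.03 and 1.67 to 4.73, 2.78 to 70.1 and 2.13 to 52.3, 0 to 0.201 and 0 to 0.456, 14.3 to 48.8 and 13.2 to 42.7, and 108 to 185 and 123 to 278 CPM. The 2 libraries of a culture share a title number and genotype and deviated together in all 12 (correlation 0.160 to 0.472), so they are paired. KO and WT cultures with the same number did not all deviate together (0.0276 to 0.807 in RNA, 0.0399 to 0.240 in footprints) and cross batches, so the numbers do not pair them. No columns of another series were used.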

Additional observations from a re-analysis of the deposited data

Results flagged for a closer look

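Of 40 groups of 6 libraries screened (10 chains, both kinds of library, both genotypes), 1 held a library far from the rest: Itga4 total RNA in WT5, at 7.78 log2 CPM (219 CPM, 1442 counts), against 8.12 (278 CPM) for the next lowest WT culture. The gap was 0.663 of the whole WT range. Chance flags about 1 in 20 such groups.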

How the results depend on the processing

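No chain was called between genotypes in footprints relative to RNA under any alternative run, and none in total RNA except in the 4 cultures with footprint libraries of at least 1000000 counts, where the KO effect is KO2 and KO4 against WT4: there 5 chains passed in RNA and 4 in footprints, and 2740 genes in RNA, 1413 in footprints, 2 in the ratio and 1936 in footprints of batch 2 against 1. Without a low-count filter, genotype calls were 10 in RNA, 159 in footprints (2 chains) and 26 in the ratio, and 2 chains were called in RNA of batch 2 against 1. With DESeq2 they were 7 in RNA and 3 in footprints, with voom 1 in footprints, with no batch term 1 in footprints, and without KO6 and WT6 1 in RNA.

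Chains called in footprints relative to RNA between batches 2 and 1 numbered 1 with RLE, 2 with DESeq2, 2 with voom, 1 without KO6 and WT6 and 2 with the culture as a replicate block, which raised the count of genes from 1079 to 2311. A replicate block on the culture number within genotype comparisons left 0 genes in RNA and 3 in footprints; it changed no call of a chain. Voom gave 629 genes in footprints and 2 chains in RNA of batch 2 against 1, as did leaving out KO6 and WT6 for the chains. In WT cultures alone, batch 3 against 2 gave 2824 genes and 5 chains in RNA and 798 genes and 2 chains in footprints, batch 3 against 1 gave 827 in footprints, and batch 2 against 1 gave 6 chains in footprints; the cause was not tested. Itgax RNA of batch 3 against 2 reversed there to 0.38, and Itga9 in footprints against RNA reversed to 0.71 with voom, from -1.74. Itgam alone over Itgb2 gave -0.65 in RNA for batch 3 minus 1.

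Leaving out 1 culture at a time gave 2 to 9 genes in RNA and 1 to 269 in footprints (0 to 3 chains) between genotypes, 1345 to 3041 genes and 1 to 4 chains in RNA and 597 to 1193 genes and 1 to 5 chains in footprints for batch 2 against 1, 990 to 1591 and 974 to 1760 in footprints for batch 3 against 1 and 2, and 328 to 1347 genes and 0 to 1 chain in the ratio. The longest transcript length and the deepest-library fit of batch 3 could not be run, because no length was in the reference and no batch 3 library is that deep. Depth limits the batch 3 footprints most.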
